A study of Ovis aries with 9 samples.

Results

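The immediate early genes FOS, FOSB, JUN, JUNB, EGR1, ATF3, IER2, DUSP1, KLF6 and ZFP36 were read from the count table by their symbols. All 10 of the 10 were found among 28837 named genes. The list was chosen with earlier results of these data known. The series sampled liver hepatocytes of the sheep, Ovis aries, all female, as 3404 single cells over 9 stages: virgin (1 stage), gestation (6 stages: days 40 to 50, 50 to 70, 70 to 80, 90 to 100, 100 to 120 and 140 to 150) and lactation (2 stages: days 7 and 15). Every group shared the same handling: liver pieces from slaughtered sheep were held in cold Belzer UW preservation solution, digested warm with collagenases II and IV, and cells were picked by hand with a glass capillary for Smart-seq3xpress, a full-length single-cell RNA-seq protocol run in plate wells. Each stage was 1 sample, no breed, age or treatment was used to set the groups apart, and the labels do not say how many animals gave the cells of a stage. P-values therefore measure only the spread between these samples, which may be technical.

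Immediate early genes are switched on within minutes of a stimulus, before any new protein is made, through kinase cascades that act on factors already bound at their promoters. Their messenger RNAs are short-lived, and several members encode factors or enzymes that shut the response down again. In liver they are known for the priming of hepatocytes after partial hepatectomy, and they are also known to be induced while a tissue is cut, warmed and digested. With the same handling in every stage and no undigested control analysed here, expression in the animal and induction during handling cannot be told apart in any value below.

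Stages held 246 to 553 cells and 114865665 to 272944124 reads, with a median of 5171 (days 100 to 120) to 6748 (days 70 to 80) genes detected per cell. Of 13 hepatocyte markers, 12 had reads and APOA2 was at 0 in every stage. Their summed level was 85980 to 200756 CPM, against 5.26 to 45.2 CPM for 7 macrophage markers, 1.05 to 12.9 for 4 neutrophil markers and 3.46 to 47.5 for 9 lymphocyte markers. The macrophage marker CD68 was at 0 throughout. No cell name was shared between stages. CPM (reads of a gene in the summed cells of a stage, brought to a common library size by TMM scaling) was the unit of every level, and intervals on it (exact Poisson, 95%) cover counting error only.

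FOS, the partner that lets JUN proteins bind DNA tightly as AP-1, was at 8.17 CPM in the virgin stage. Over gestation in order of days it was at 3.47, 5.87, 5.06, 4.65, 6.69 and 3.52 CPM, and in lactation at 15.7 CPM on day 7 and 3.05 CPM on day 15. Day 7 of lactation was the highest and day 15 the lowest of all 9 stages, so gestation lay inside the lactation range. FOSB, a second FOS-family protein, was close to the limit of detection: 0.328 CPM in the virgin stage, 0.273, 0.621, 0.329, 0.731, 0.570 and 0.467 CPM across gestation, 2.72 CPM on day 7 and 0.620 CPM on day 15 of lactation. Day 7 was again the highest stage, from 339 reads (interval 2.43 to 3.02 CPM).

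JUN, the founding JUN-family subunit of AP-1, was at 14.1 CPM in the virgin stage. It was at 1.93, 6.32, 7.22, 6.19, 26.0 and 7.08 CPM across gestation, then at 5.54 and 13.3 CPM on days 7 and 15 of lactation. JUNB, a family member that pairs with FOS proteins but activates many JUN targets less strongly, was at 10.1 CPM in the virgin stage, at 3.58, 1.24, 2.05, 5.34, 19.4 and 3.19 CPM across gestation, and at 7.90 and 2.94 CPM in lactation. For both, days 100 to 120 was the highest stage of all 9. The JUNB interval there was 18.7 to 20.1 CPM from 3089 reads, so counting error is small beside the gap to the other stages.

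ATF3, a stress-induced factor that pairs with JUN proteins, was at 5.15 CPM in the virgin stage. It was at 5.27, 6.76, 3.96, 3.62, 30.9 and 2.46 CPM across gestation and at 6.38 and 14.9 CPM in lactation. Days 100 to 120 was the highest stage and day 15 of lactation the next.

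Of the zinc-finger factors, EGR1, a growth-factor-responsive activator, was barely detected. It had 0.854 CPM in the virgin stage, 0.273, 0.0603, 0.172, 1.31, 0.320 and 0.291 CPM across gestation and 0.473 and 0.696 CPM in lactation. Its lowest value rests on 7 reads, and days 90 to 100 was its highest stage. KLF6, a Krüppel-like factor expressed widely in liver, was at 20.4 CPM in the virgin stage, at 14.9, 14.8, 18.4, 15.4, 41.2 and 14.5 CPM across gestation, and at 13.4 and 36.9 CPM in lactation. Its values at days 100 to 120 and at day 15 of lactation stood above the other 7 stages, which lay between 13.4 and 20.4 CPM.

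DUSP1, a phosphatase that switches off MAP kinases, was at 45.3 CPM in the virgin stage. It was at 27.5, 22.0, 44.6, 29.2, 63.9 and 55.7 CPM across gestation and at 23.3 and 85.3 CPM on days 7 and 15 of lactation. ZFP36, also called tristetraprolin, a protein that marks AU-rich messenger RNAs for decay, was at 10.2 CPM in the virgin stage, at 4.58, 1.72, 5.87, 5.51, 15.8 and 2.88 CPM across gestation, and at 2.08 and 6.14 CPM in lactation. DUSP1 was highest on day 15 of lactation, and ZFP36 at days 100 to 120.

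IER2, a nuclear protein of the early response, was at 50.3 CPM in the virgin stage, at 46.7, 54.7, 42.7, 49.4, 61.2 and 45.3 CPM across gestation and at 47.6 and 49.9 CPM in lactation. Its highest stage was 1.43 times its lowest, against a median of 2.07 over 12016 genes, and 8.29% of these had a smaller ratio. JUNB was at the other end with a ratio of 15.6, and 96.2% of genes had a smaller one; JUN had 13.5, ATF3 12.5, ZFP36 9.19, FOS 5.16, DUSP1 3.87 and KLF6 3.07. The IER2 model has a listed length of 8140 bases, the longest of the 10, and in RefSeq it overlaps another protein-coding gene at 140 to 754 CPM, while ATF3 overlaps a long non-coding RNA at 0.151 to 1.52 CPM. Whether the counting used strand is not given, and how much exon sequence these genes share was not examined. How far the overlaps affect the IER2 and ATF3 counts is therefore not known.

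Per kilobase of listed length, averaged over the 9 stages, DUSP1 was the most abundant member (21.8 CPM per kilobase). ZFP36 (6.22), IER2 (6.11) and KLF6 (5.21) followed. EGR1 (0.303) and FOSB (0.196) were the least abundant. IER2, DUSP1 and KLF6 together gave 62.5% (days 100 to 120) to 85.3% (days 140 to 150) of the summed CPM of the 10 members. That sum was 164.9 CPM in the virgin stage, 108.4, 114.1, 130.4, 121.4, 266.0 and 135.4 CPM across gestation, and 125.1 and 213.7 CPM on days 7 and 15 of lactation.

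**Figure D1:**
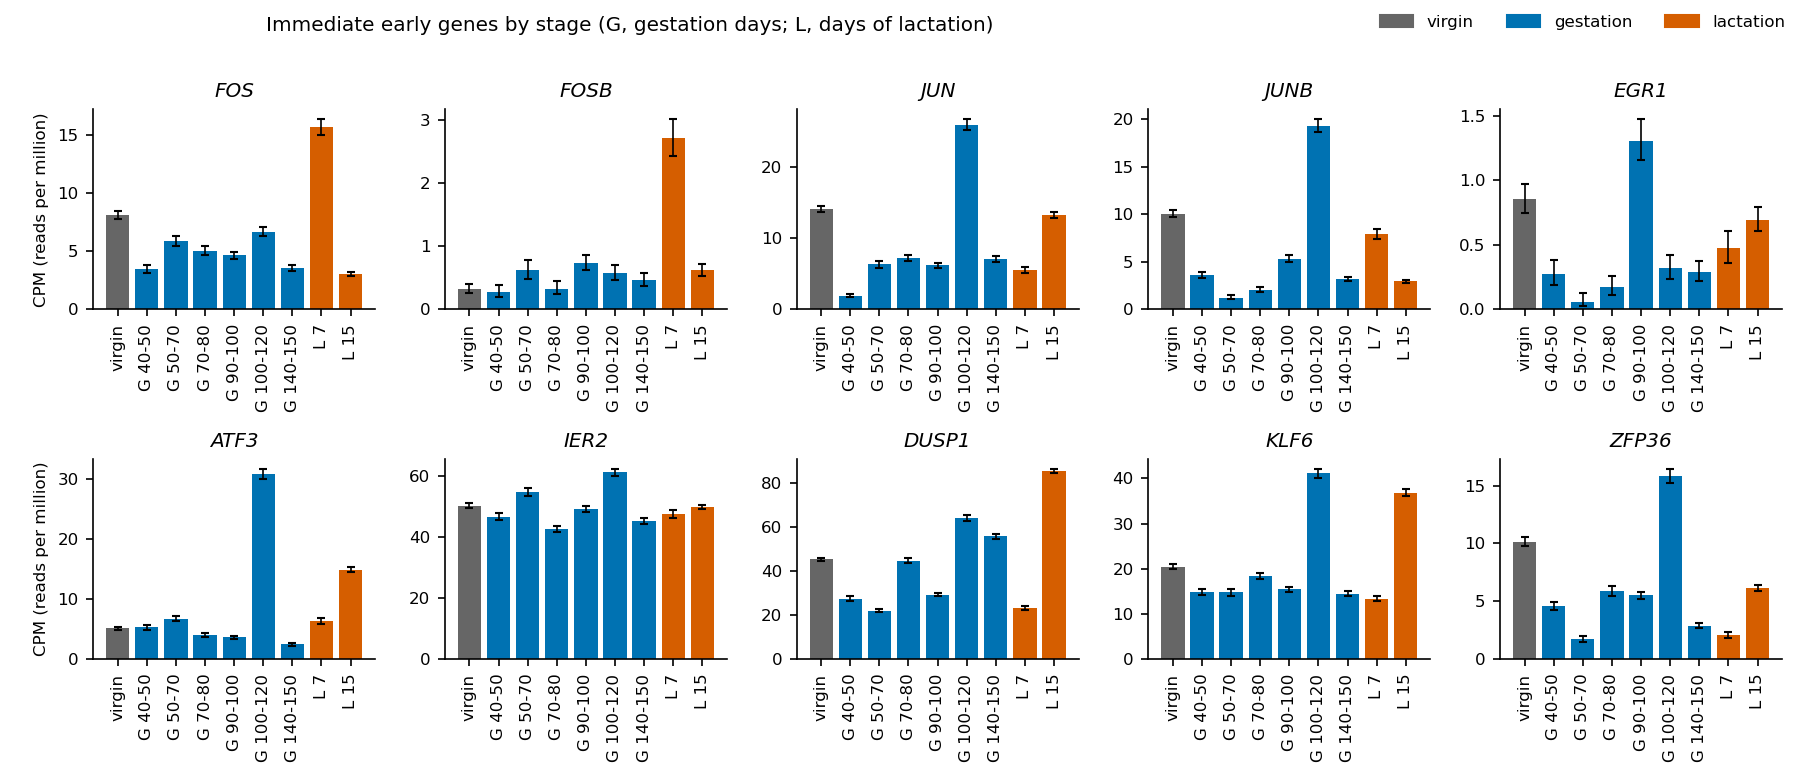
Level of each member (CPM after TMM scaling, y axis) in each of the 9 stages (x axis), 1 sample per stage, with exact Poisson 95% intervals of counting error. JUN, JUNB, ATF3, KLF6 and ZFP36 were highest at gestation days 100 to 120, and FOS and FOSB on day 7 of lactation.

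No member passed the test over all genes for a difference between phases or along gestation. With edgeR's quasi-likelihood test and Benjamini-Hochberg adjustment, 0 of 10 members passed an adjusted p of 0.05 for gestation against lactation, where 0.0592% of all genes tested passed. The same count was 0 of 10 for gestation against virgin (0.00494% of genes), for lactation against virgin (0% of genes; 1000 of 20263 had an unadjusted p under 0.05) and for the trend over the 6 gestation stages (0.0336% of genes). At an unadjusted p under 0.05 these comparisons held 1, 0, 0 and 1 members, against 9.4%, 4.45%, 4.94% and 6.62% of all genes. DESeq2 also called 0 members in each. For 0 of 10 members did the gestation stages lie wholly above or below the lactation stages, while 11% of all genes did not overlap in this way.

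FOSB was the member with an unadjusted p under 0.05 for gestation against lactation. Its log2 fold change was -1.74 (SE 0.58, unadjusted p 0.0135, adjusted p 0.364 by edgeR's quasi-likelihood test), that is, lower in gestation. Without day 7 of lactation the log2 fold change was -0.31, and without the cells carrying blood-cell markers described below it was -0.51. DUSP1 held that place in the trend, at 1.29 log2 units per 100 days of gestation (SE 0.45, unadjusted p 0.0208, adjusted p 0.628 by the same test). Trend estimates were above 0 for 9 of 10 members, with a median of 1.21 against 0.01 over all genes. Without days 100 to 120 they were above 0 for 5 of 10, with a median of 0.19.

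Days 100 to 120 stood apart within gestation for most members. Of the 8 members with at least 1 CPM, 6 were at least 2-fold above the median of the other 5 gestation stages, against 5.34% of all genes: ATF3 (7.80-fold), JUNB (6.08-fold), JUN (4.11-fold), ZFP36 (3.45-fold), KLF6 (2.77-fold) and DUSP1 (2.19-fold). FOS was at 1.44 and IER2 at 1.31 times that median. For 8 of 10 members this stage was the highest of the 6, against 18.9% of all genes; EGR1 and FOSB were the exceptions. These are ratios of 1 sample to others, with no replicate of the stage. The comparison was chosen with earlier results of these data known, so the shares of all genes beside it do not measure chance.

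The values on either side give the shape of this peak. From days 90 to 100 to days 100 to 120, 6 of 9 members were at least 2-fold higher (6.53% of all genes) and EGR1 alone was at least 2-fold lower (8.2%). From days 100 to 120 to days 140 to 150, JUN, JUNB, ATF3, KLF6 and ZFP36, 5 of 8 members, were at least 2-fold lower (6.87%) and 0 were higher (7.97%). DUSP1 was not among them, at 63.9 and then 55.7 CPM.

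Lactation split the members. From days 140 to 150 of gestation to day 7 of lactation, FOS, FOSB, JUNB and ATF3, 4 of 9, were at least 2-fold higher (8.62% of all genes) and DUSP1 was lower (7.09%). From day 7 to day 15, DUSP1 (3.66-fold), ZFP36 (2.96-fold), KLF6 (2.75-fold), JUN (2.40-fold) and ATF3 (2.34-fold), 5 of 9, were higher (7.02%), while FOS, FOSB and JUNB, 3 of 9, were lower (9.91%) at 0.194, 0.228 and 0.372 times their day 7 level. Without the cells carrying blood-cell markers described below, FOS (0.457 times) and JUNB (0.433 times) were still lower on day 15, while FOSB was at 0.352 CPM on day 7 and 0.572 on day 15. From days 140 to 150 to day 7 FOSB was then at 0.203 and 0.352 CPM, under the 1 CPM needed, and ZFP36 was over 2-fold lower (2.84 and 1.34 CPM). Between the virgin stage and days 40 to 50, FOS, JUN, JUNB and ZFP36, 4 of 8, were at least 2-fold lower (8.7%) and 0 were higher (6.61%).

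The members differed in how many cells carried them. After each cell was thinned to 155164 reads, which left 3063 cells and set aside 341 shallower ones, IER2 had a read in 86.2% to 92.9% of cells of a stage. DUSP1 had one in 48.8% to 83.0%, KLF6 in 50.6% to 76.0% and ATF3 in 14.1% to 54.1%. FOS had one in 11.7% to 26.7%, EGR1 in 0.794% to 9.58% and FOSB in 1.13% to 5.78%, so most cells of every stage had no read of these 3 genes at this depth.

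The share of cells with a read of JUN or ATF3 was highest on day 15 of lactation. JUN was read in 46.2% of cells at days 100 to 120 (exact Clopper-Pearson 95% interval 40.8% to 51.6%) and in 54.7% on day 15 (50.2% to 59.2%), against 10.9% at days 40 to 50 (7.45% to 15.3%). The virgin stage, at 42.4% (37.9% to 47.0%), and days 70 to 80, at 38.5% (31.9% to 45.4%), overlapped days 100 to 120. ATF3 was read in 37.1% (31.9% to 42.4%) of cells at days 100 to 120 and in 54.1% (49.6% to 58.6%) on day 15, so day 15 had more positive cells than days 100 to 120 although its CPM was lower. Without thinning these ATF3 shares were 41.6% and 60.8%. DUSP1 was read in 50.0% of cells at days 100 to 120, near its lowest share, although its CPM there was the highest of gestation.

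The median share over the 10 members was 35.3% in the virgin stage, 16.6%, 20.6%, 29.6%, 21.0%, 37.2% and 19.1% across gestation, and 28.7% and 41.7% in lactation. The concentration of reads was taken without thinning, over all cells of a stage including those with no read. The top 10% of cells of a stage held 80.0% to 93.5% of FOS reads, 58.2% to 91.0% of JUNB reads and 30.01% to 46.0% of IER2 reads. These values also depend on how many cells had a read and on their depth, so they do not measure unevenness among positive cells. FOS levels thus rest on few cells in every stage, and IER2 levels on most cells.

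**Figure D2:**
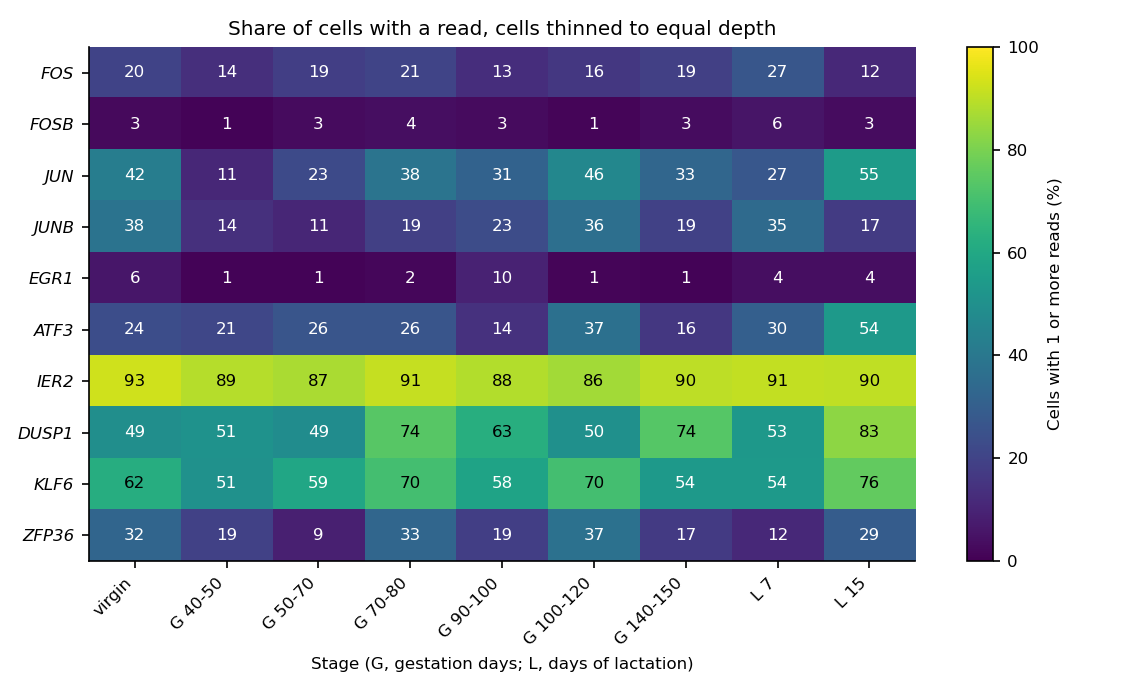
Share of cells with at least 1 read (%, colour and printed value) for each member (rows) in each stage (columns), cells thinned to equal depth. IER2 was read in 86 to 93% of cells of each stage, and FOSB and EGR1 in 1 to 10%.

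Within days 100 to 120 the level of most members differed with the cell number in the column names. What this number records is not given; a plate, a picking session or an animal cannot be told apart. Cells were put in 8 equal runs by number, and the last 4 runs (176 cells) were set beside the first 4 (177 cells). Of the 9 members with at least 1 CPM in either, 7 were at least 2-fold higher in the last 4 runs, against 11.1% of all genes.

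JUNB went from 1.30 to 37.1 CPM, from 103 to 2986 reads. ATF3 went from 5.38 to 56.0 CPM, ZFP36 from 5.86 to 25.7, JUN from 11.2 to 40.6, FOS from 1.60 to 11.7 and KLF6 from 26.2 to 55.8. FOSB had 2 and 89 reads in these cells, and EGR1 had 0 and 51. IER2, at 52.6 and 69.7 CPM, was less than 2-fold apart.

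DUSP1 went the other way, from 99.7 to 28.8 CPM, where 11.8% of all genes were at least 2-fold lower. In single runs it was at 12.6, 109, 115, 159, 61.3, 18.6, 8.89 and 8.90 CPM, so its first run was low as well. JUNB was at 1.25, 1.04, 0.159, 2.71, 45.7, 30.6, 42.8 and 26.0 CPM over the same runs, with no overlap between the first 4 and the last 4.

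HSPA1A, an inducible heat shock chaperone that is no member, moved with the other members here, from 66.2 to 544 CPM, and its partner DNAJB1 from 38.4 to 315 CPM. Albumin was at 93672 and 100127 CPM, and the median number of genes detected was 5165 and 5188.5. Cells with blood-cell markers numbered 8 in the first 4 runs and 33 in the last 4; without them JUNB was still at 1.30 and 36.2 CPM and ATF3 at 5.50 and 54.6 CPM, but KLF6, at 26.8 and 49.7 CPM, was no longer 2-fold apart and FOSB stayed under 1 CPM (0.0265 and 0.828). With only the first 4 runs of every gestation stage, 3 members (JUN, DUSP1 and KLF6) in place of 6 were at least 2-fold above the other stages at days 100 to 120. With only the last 4 runs, 7 were: FOS, FOSB, JUN, JUNB, ATF3, KLF6 and ZFP36. These were at 2.28 to 13.3 times the median of the other stages, and DUSP1 was at 0.927 times. The share of all genes was not taken for these counts by runs, so they have no background.

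**Figure D3:**
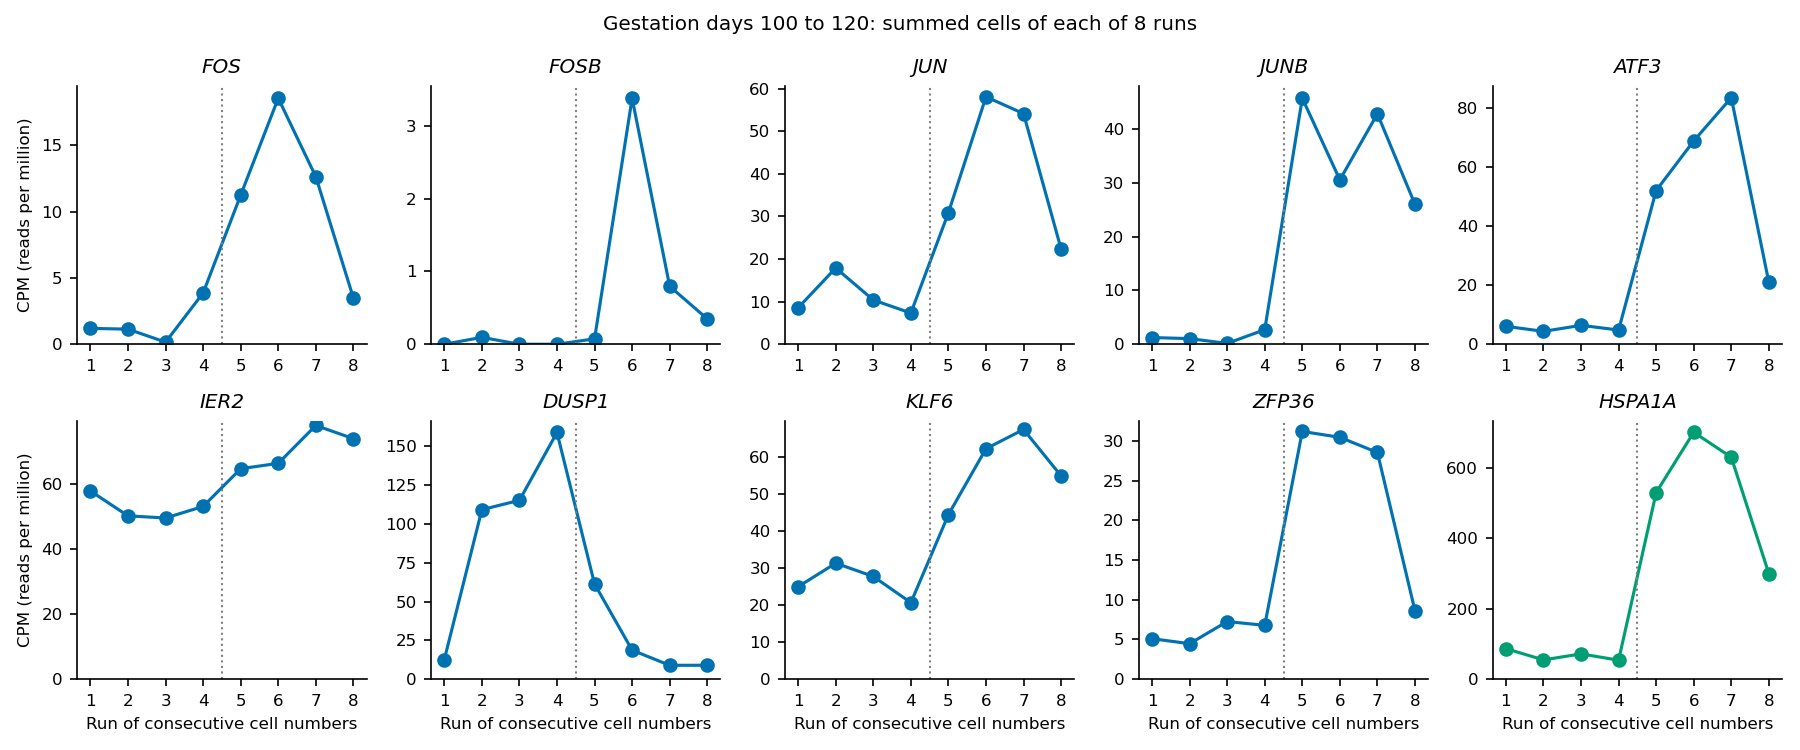
Level (CPM, y axis) of 9 members and of the heat shock gene HSPA1A in 8 runs of consecutive cell numbers (x axis) at gestation days 100 to 120, each point the summed cells of 1 run; the dotted line parts the first 4 from the last 4. JUNB lay between 0.159 and 2.71 CPM before the line and between 26.0 and 45.7 after it, while DUSP1 was highest, at 159, in the run before it and at 8.90 in the last.

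Other stages also differed with cell number, in no common direction. At days 70 to 80, FOS, JUN, JUNB, DUSP1, KLF6 and ZFP36, 6 of 8 members, were at least 2-fold higher in the last 4 runs (11.5% of all genes) and 0 lower (5.23%); DUSP1 went from 24.5 to 79.3 CPM. In that stage cells with blood-cell markers numbered 3 and 24. Without them FOS was at 2.44 and 4.17 CPM, no longer 2-fold apart, while JUN (4.32 and 10.1), JUNB (0.991 and 2.53), DUSP1 (23.8 and 74.8), KLF6 (10.8 and 29.2) and ZFP36 (2.20-fold) still were. The median reads per cell were 542508.5 and 294150, and the part of depth in the result was not tested. In the virgin stage JUN, JUNB, EGR1, DUSP1 and ZFP36, 5 of 9, were at least 2-fold lower in the last 4 runs (6.21%) and 0 higher (4.83%), with DUSP1 at 70.8 and 8.61 CPM. Elsewhere few members were 2-fold apart. At days 40 to 50, 2 of 8 (FOS and JUN) were lower (9.13%) and 0 higher (4.96%), and at days 50 to 70, 2 of 9 (FOSB and JUNB) were higher (9.34%) and 0 lower (6.7%). At days 90 to 100, 1 of 9 (ZFP36) was lower (9.72%) and 0 higher (7.59%), and at days 140 to 150, 0 of 8 were higher (6.11%) or lower (4.93%). On day 7 of lactation 1 of 9 (FOSB) was lower (9.35%) and 0 higher (5.38%). On day 15, 1 of 9 was higher (KLF6, 2.94%) and 1 lower (EGR1, 2.97%).

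Several of these differences turned on the cells with blood-cell markers described below. At days 50 to 70 such cells numbered 8 and 21. Without them FOSB was at 0.104 and 0.633 CPM and JUNB at 0.783 and 1.47 CPM, so neither was called, and ZFP36 was over 2-fold lower in the last 4 runs (2.05 and 0.898 CPM). On day 7 of lactation, with 25 and 23 such cells, FOSB turned round without them, at 0.0912 and 0.548 CPM, and FOS (2.49 and 7.62 CPM) and ZFP36 (0.753 and 1.78 CPM) were over 2-fold higher in the last 4 runs. At days 40 to 50 JUN was then at 2.33 and 1.22 CPM, less than 2-fold apart. The span between the lowest and highest run within a stage exceeded the span between all 9 stages in 8 stages for IER2, in 5 for DUSP1 and in 1 for ATF3.

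A minority of picked cells carried reads of blood-cell markers, and the FOS level was higher in them. A cell was counted as such when the 20 macrophage, neutrophil and lymphocyte markers found took over 100 CPM of its own unscaled reads; there were 263, 9 to 48 per stage. Albumin stood at 24912 to 104225 CPM in them, and of 12 hepatocyte markers 0 were called higher and 2 lower, while 2 of 6 endothelial markers were called higher, by the edgeR test given below. Whether a well held more than 1 cell was not tested. The rule was set after the data were seen, and it uses none of the 10 members.

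FOS was at 18.2 to 62.3 CPM (median 27.7) in these cells over the 9 stages and at 2.47 to 7.17 CPM (median 3.14) in the other cells. The ranges do not overlap, and FOS was higher in 9 of 9 stages. JUNB was at 2.83 to 33.2 against 1.10 to 17.8 CPM, JUN at 7.66 to 43.2 against 1.68 to 24.0 and ZFP36 at 3.99 to 30.03 against 1.34 to 14.9, each higher in 9 of 9 stages with overlapping ranges.

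In edgeR's quasi-likelihood test with the stage as a block, 4 of 10 members were called higher, against 3.39% of all genes. The log2 fold change was 2.75 for FOS (SE 0.22, adjusted p 2.71e-07), 1.496 for JUNB (SE 0.24, adjusted p 0.000556), 1.04 for JUN (SE 0.23, adjusted p 0.0124) and 1.15 for ZFP36 (SE 0.28, adjusted p 0.0227). The last call was lost without days 70 to 80 (adjusted p 0.0692) or without day 7 of lactation (adjusted p 0.0636).

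FOSB had a log2 fold change of 2.54 with a wide error (SE 0.71, adjusted p 0.0526). KLF6 (0.42, adjusted p 0.163), DUSP1 (0.43, adjusted p 0.392), ATF3 (0.27, adjusted p 0.615), IER2 (0.08, adjusted p 0.695) and EGR1 (-0.09, adjusted p 0.970) did not pass the same edgeR test. Where cells with any read of PTPRC, the pan-leukocyte gene, were set apart instead, 1 member was called, FOS (share of all genes not given here). Against cells of the same run, blood-marker cells held 7.08 times the FOS reads expected, 1.96 times for JUNB, 1.76 for ZFP36 and 1.58 for JUN. In single stages this ratio was 2.75 to 13.5 for FOS, 1.40 to 6.24 for JUNB and 1.08 to 7.64 for ZFP36. For JUN it was 1.01 in the virgin stage and 0.947 at days 50 to 70, with no excess there.

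These cells bear on the lactation values. On day 7, 48 of 246 cells held 71.8% of FOS reads and 89.4% of FOSB reads. Without them FOS was at 5.42 in place of 15.7 CPM and FOSB at 0.352 in place of 2.72 CPM. Both were inside the range of the other stages. On day 15 such cells held 189 of 920 FOS reads, and in the virgin stage 370 of 2265. At days 100 to 120 the JUNB level was 17.8 and the ATF3 level 28.7 CPM without such cells. There 6 members were still at least 2-fold above the other gestation stages, and the share of all genes was not taken without these cells.

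**Figure D4:**
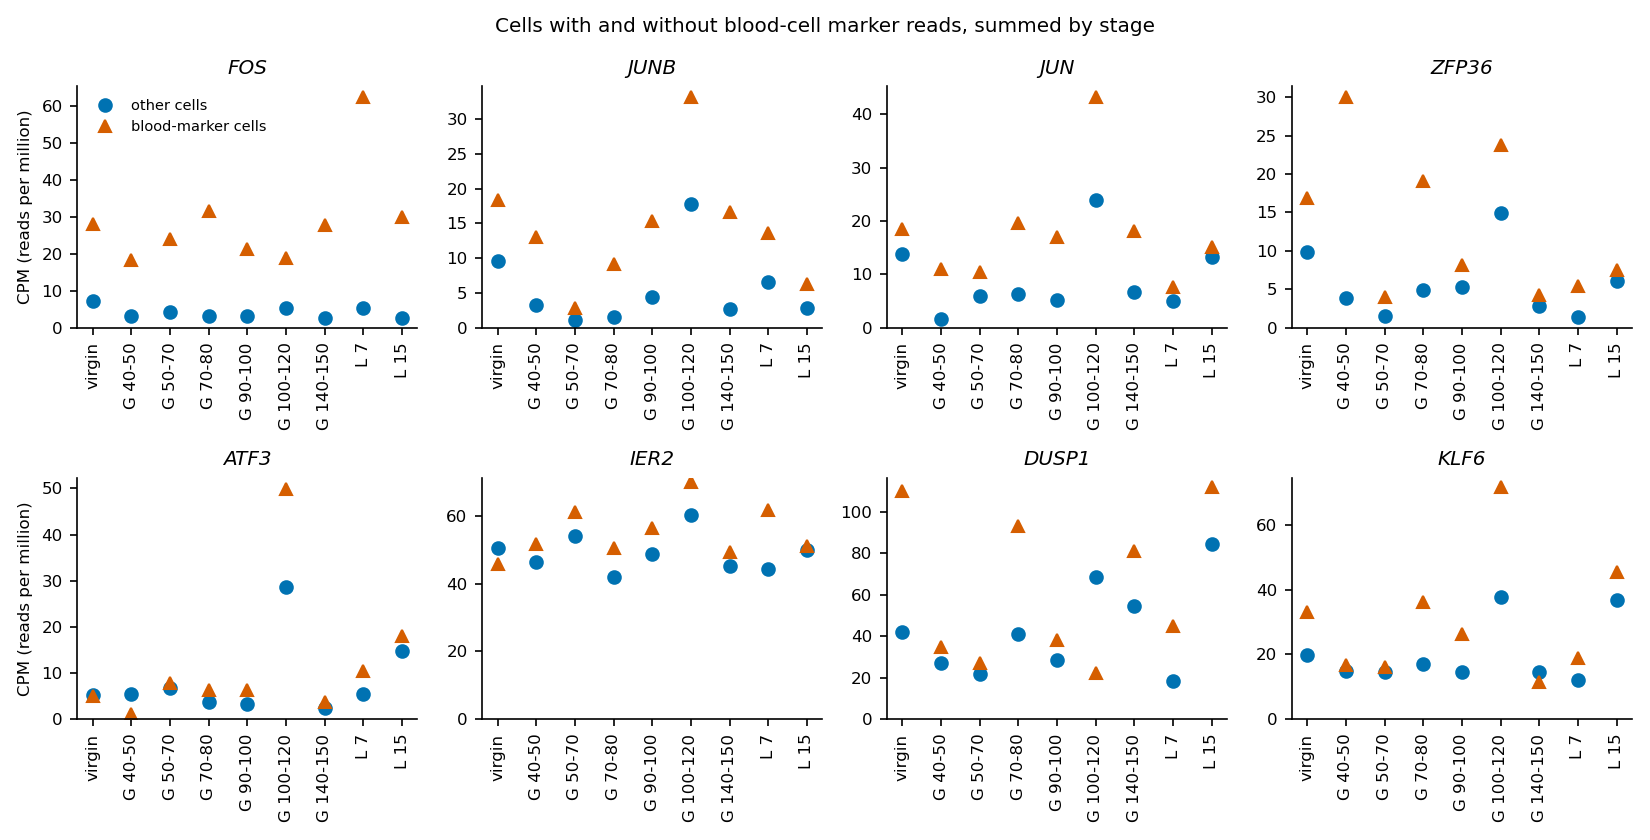
Level (CPM, y axis from 0) of 8 members in cells with blood-cell markers (triangles) and in the other cells (circles) of each stage (x axis), summed by stage. FOS was higher in the marker-bearing cells in 9 of 9 stages, at 18.2 to 62.3 against 2.47 to 7.17 CPM, while the 2 sets overlapped for the other members plotted.

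Other genes of the response were read from 8 lists, in which edgeR called 0 genes in the 4 stage comparisons; 0 to 4 genes of a list had an unadjusted p under 0.05 in each. DESeq2 called IER5, DUSP2, ASNS and ATF5 lower in gestation than lactation, and BHLHE40, CEBPB and GADD45A higher along gestation. At days 100 to 120, where 5.34% of all genes were at least 2-fold above the median of the other 5 gestation stages, 6 of 10 other early transcription factors with at least 1 CPM were (FOSL2, JUND, KLF10, MAFF, CEBPB and CEBPD). So were 12 of 15 other early response genes. JUND, the JUN-family subunit that resting cells already make, was at 448 CPM there and at 419 CPM on day 15 of lactation, against 80.6 to 236 CPM in the other 7 stages. CEBPD, an acute-phase factor, was at 143 CPM there and at 47.1 to 117 CPM in the other stages. BTG1, an antiproliferative early gene, was at 505 CPM there, against 109 to 168 CPM in the other gestation stages and 324 CPM in the virgin stage. ERRFI1, an inhibitor of the EGF receptor, lay between 455 and 600 CPM in all 9 stages.

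Of the kinases and factors upstream of the members, 1 of 17 (ELK3) was at least 2-fold higher at days 100 to 120, and the list summed to 366 to 455 CPM over the stages. Single genes ran wider, with ELK3 at 0.742 to 6.82 CPM and the kinase RPS6KA3 at 21.7 to 82.9 CPM. ELK4, a factor that binds serum response elements, was at 61.1 to 81.8 CPM and the receptor EGFR at 52.9 to 80.8 CPM. Of the feedback inhibitors other than the members, 1 of 12 (DUSP10) was at least 2-fold higher there; DUSP16, a phosphatase of JUN kinases, was at 73.8 to 168 CPM and ZFP36L1, a ZFP36 relative, at 73.4 to 156 CPM.

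Of the NF-kB early targets 2 of 7 (SOCS3 and RELB) were at least 2-fold higher at days 100 to 120, and NFKBIA, the inhibitor that NF-kB induces, was at 15.2 to 49.3 CPM over the stages and NFKBIZ, a second such regulator, at 23.6 to 62.8 CPM. Of the heat shock genes 5 of 10 were, and all 10 were highest there within gestation. HSPA1A was at 307 CPM at days 100 to 120 against 55.8 to 94.9 CPM in the other 8 stages, and DNAJB1 at 178 against 30.9 to 55.2 CPM. The 2 most abundant of the list, HSPA5 (397 to 883 CPM) and HSP90AA1 (430 to 695 CPM), spanned less. Of the ATF4 targets 2 of 9 (TRIB3 and CHAC1) were, while ATF4 itself was at 260 CPM there, below its 367 CPM on day 7 of lactation, and ATF5 was at 203 CPM against 457 CPM on that day. Of the proliferation genes 4 of 8 (CCNA2, CDK1, MKI67 and TOP2A) were, and 0 of 10 were highest there. CCND1 was at 14.8 CPM at days 100 to 120, its lowest stage, and at up to 69.7 CPM on day 7 of lactation, and PCNA was at 8.69 to 27.4 CPM over the stages.

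In the cells with blood-cell markers, genes of these lists other than the members were called as follows, by the same edgeR test. KLF2, an endothelial and lymphocyte factor, was higher with a log2 fold change of 3.93 (adjusted p 0.000313), 1 of 13 early transcription factors. DUSP2, a phosphatase of blood cells, was at 2.83 (adjusted p 0.000397) and ZFP36L2 at 0.57 (adjusted p 0.00569), 2 of 15 feedback inhibitors. BIRC3 (1.30, adjusted p 0.00178) and TNFAIP3 (1.94, adjusted p 0.00869) were 2 of 7 NF-kB targets, and DNAJB1 (0.67, adjusted p 0.00408) was 1 of 10 heat shock genes. EGFR was lower at -0.45 (adjusted p 0.00947), 1 of 17 upstream genes. DESeq2 called more genes of these lists, and its share of all genes called is not given here. It called 5 of 17 early transcription factors higher (CEBPB, EGR3, KLF2, NR4A1 and NR4A2) and 3 of 15 feedback inhibitors (DUSP2, DUSP5 and ZFP36L2). Of the NF-kB targets 4 of 10 were called higher (BIRC3, CXCL8, RELB and TNFAIP3). Among upstream genes DESeq2 called EGFR, ELK4 and RPS6KA1, 1 higher and 2 lower. By edgeR 0 of 15 early response genes were called, although 3 had an unadjusted p under 0.05 and DESeq2 called 2 higher (IER5 and PHLDA1). The count was 0 of 9 for ATF4 targets (2 with an unadjusted p under 0.05, 1 called by DESeq2) and 0 of 8 for proliferation genes (0 and 0).

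Across cells of a stage the members varied together only weakly. Spearman's rho over thinned cells was taken for each of 45 pairs; cells of a stage share their handling and library preparation, and a weak rho in sparse counts is no finding. The median over pairs was 0.104 in the virgin stage, 0.0381, 0.0584, 0.0633, 0.0515, 0.137 and 0.0676 across gestation and 0.107 and 0.0448 in lactation. Averaged over the 9 stages, the closest pairs were FOS with JUNB (0.173), FOS with FOSB (0.169), JUNB with ZFP36 (0.166) and FOS with JUN (0.146). Ranked within runs of cell numbers these pairs, listed as above, were at 0.132, 0.158, 0.119 and 0.123, so FOS with FOSB then came first. Without the blood-marker cells they were at 0.129, 0.0931, 0.148 and 0.124, so the order of the pairs was not stable. FOS had the highest mean rho with the other members (0.118), and ATF3 (0.0546) and IER2 (0.0554) the lowest. Within runs FOS was still highest (0.0983) and ATF3 lowest (0.0313), with KLF6 (0.0384) below IER2 (0.0417).

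At days 100 to 120, over 340 cells, JUN with ATF3 reached 0.428, JUNB with ATF3 0.381, ATF3 with KLF6 0.349 and JUNB with ZFP36 0.346. DUSP1 ran against the others, with a mean rho of -0.150 and -0.286 with JUNB. Ranked within runs of cell numbers, JUN with ATF3 was at 0.293 and ATF3 with KLF6 at 0.265, while JUNB with ATF3 was at 0.101 and JUNB with DUSP1 at -0.0401. The median over pairs was 0.0568 within runs, against 0.137 without that step.

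In the virgin stage DUSP1 had the highest mean rho with the other members (0.179). Ranked within runs that mean was 0.0818, below ATF3 (0.107) and FOS (0.0977). On day 7 of lactation FOS with FOSB was at 0.339, and at 0.191 without the blood-marker cells. On day 15 the closest pair was DUSP1 with KLF6, at 0.328 over 495 cells and 0.109 within runs.

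**Figure D5:**
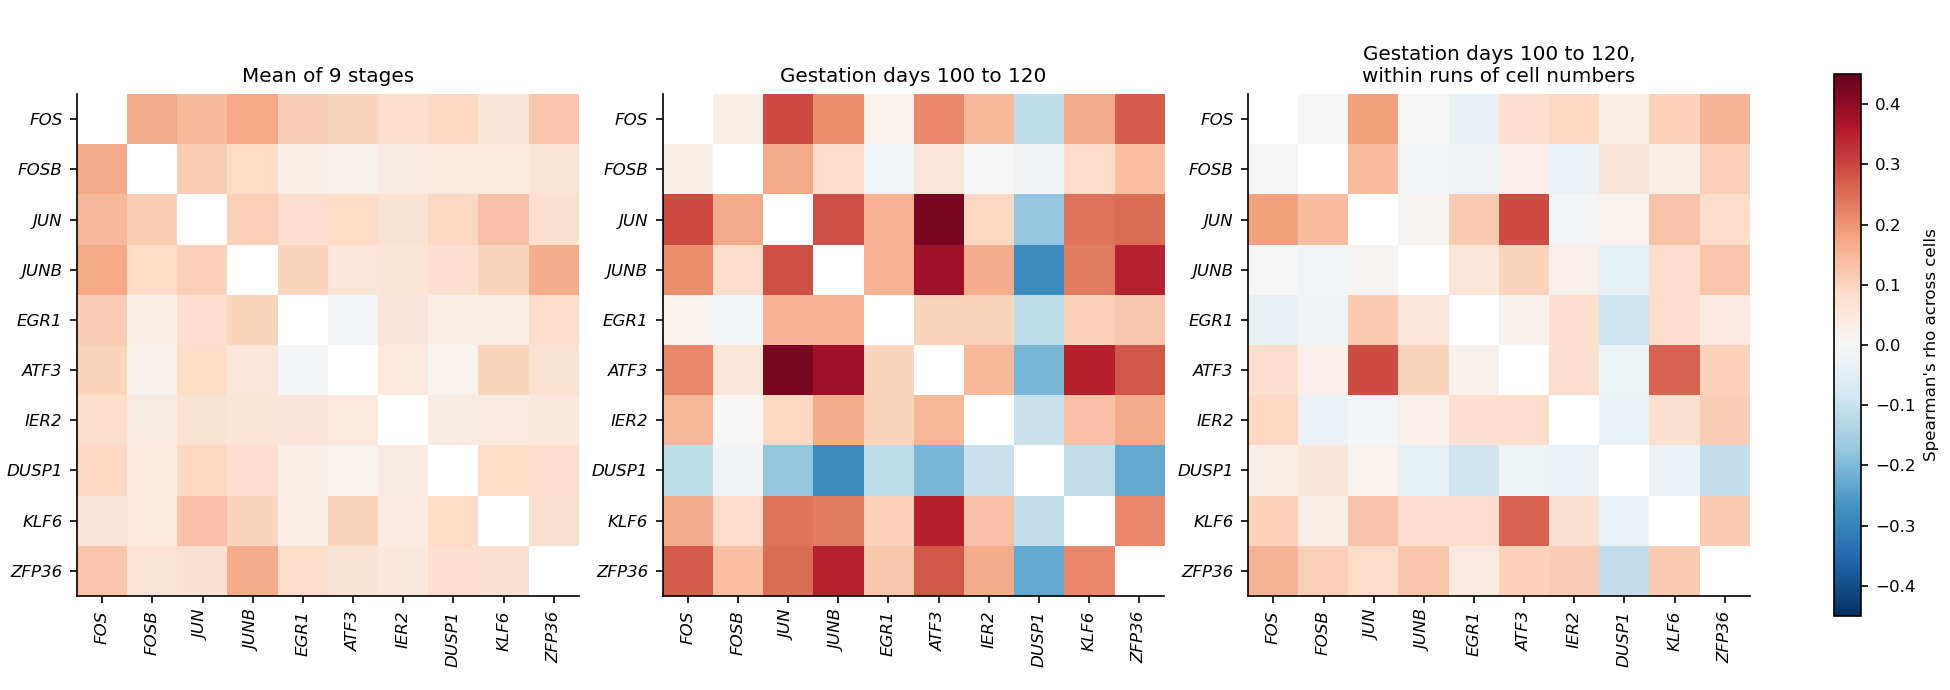
Spearman's rho (colour) between each pair of members across thinned cells, as the mean of 9 stages, at gestation days 100 to 120, and at days 100 to 120 within runs of cell numbers. At days 100 to 120 JUN, JUNB, ATF3, KLF6 and ZFP36 had rho up to 0.428 with each other and DUSP1 was negative with all other members; the median over pairs was 0.137, and 0.0568 within runs.

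The genes outside the list whose reads ran most like the mean rank of the 10 members were ranked by mean rho over the 9 stages, among 3722 genes with at least 20 CPM (median 0.0425). The highest 10 were BTG2 (0.327), BTG1 (0.282), MYC (0.260), RHOB (0.255), CEBPD (0.246), SLC38A2 (0.237), NFIL3 (0.225), ATF5 (0.209), TSC22D3 (0.208) and SGK1 (0.206). BTG2 and BTG1 encode antiproliferative proteins, MYC a growth-promoting transcription factor, and SLC38A2 an amino acid transporter. BTG2 was at 0.178 to 0.549 in single stages, above 0 in all 9. This ranking was not taken within runs of cell numbers, and its top genes also differed with cell number. Between the first and last 4 runs BTG2 went from 205 to 31.7 CPM in the virgin stage and from 70.8 to 263 CPM at days 100 to 120. MYC went from 51.9 to 1.95 CPM in the virgin stage and from 38.5 to 198 CPM at days 70 to 80. At days 140 to 150 BTG2 was at 65.4 and 70.8 CPM.

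The same measure was taken for whole lists. The mean rank of the members had a mean rho of 0.427 with that of the other early response genes, 0.363 with the other early transcription factors, 0.249 with NF-kB targets and 0.239 with ATF4 targets. With the heat shock genes it was 0.174 on average but ran from -0.120 in the virgin stage to 0.620 at days 100 to 120. With the number of genes detected in the thinned cell it was 0.262, and with hepatocyte markers -0.128. None of these list values was taken within runs of cell numbers. At days 100 to 120 HSPA1A went from 66.2 to 544 CPM between the first and last 4 runs, where most members were also higher. How much of the 0.620 comes from that difference was not tested.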

How the data were processed

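The authors deposited 1 table of read counts per gene and cell, 28861 rows by 3404 cells. Per the submitters' processing notes the tools were Trimmomatic 0.39, HISAT2 2.1.0 and featureCounts 2.0.1; genome build, strand setting and any collapse of molecular identifiers are not given in the sources used here. A second, normalized table held only NA and was set aside. The 24 rows naming no gene (0.474% of reads) were left out. Columns of per-sample values left unused numbered 0. No sequences were used.

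Each stage's cells were added up to 1 column of counts, since cells are not replicates, and scaled by TMM. Tests used edgeR 4.0.16 (quasi-likelihood, filterByExpr, 1 term per phase, all 9 stages; day midpoint for the trend over 6 stages), with DESeq2 1.42.0 and limma 3.58.1 as alternatives, in R 4.3.3; the edgeR and DESeq2 fits were first tested on simulated data. The virgin phase has 1 sample and is assumed to vary like the others. No doublet caller was run. Folds between single stages need 1 CPM in either, and a value under 3 reads was set to 3 reads. The text names all members, the called genes of each list or else the 2 of highest mean CPM, and the 10 genes closest to the members; other names were chosen after values were seen. The members, lists and comparisons were chosen with earlier results of these data known. RefSeq gene models (ARS-UI_Ramb_v3.0) served for overlaps and lengths were as the count table lists them.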

Additional observations from a re-analysis of the deposited data

Results flagged for a closer look

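Among the 6 gestation stages, 13 sets of values were screened by Dixon's test for a stage far from the other 5, and 8 were marked. Chance flags about 1 in 20 such sets where values are independent and normally distributed. CPM was screened without a log scale and the rate over all genes was not taken, so the count of 8 does not measure chance. Days 100 to 120 lay far above the other stages for JUN (26.0 CPM), JUNB (19.4 CPM), ATF3 (30.9 CPM), KLF6 (41.2 CPM), ZFP36 (15.8 CPM), the summed members (266.0 CPM) and the median pairwise correlation across cells (0.137). These sets share the same cells. Ranked within runs of cell numbers that correlation was 0.0568, below days 140 to 150 (0.0582), so it did not stand apart there. EGR1 was marked at days 90 to 100 (1.31 CPM, from 265 reads). DUSP1, IER2, FOS and FOSB were not marked, nor was the median share of cells with a read (37.2% at days 100 to 120).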

How the results depend on the processing

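In the 4 comparisons of stages 0 members were called in any setting; of 550 alternative values, 504 kept their sign and 46 changed it. The number of all genes called did vary: 12, 1, 0 and 6 by edgeR against 577, 122, 112 and 337 by DESeq2, and 1 to 45 for gestation against lactation as single stages were left out. The trend's member median was 2.44 without days 140 to 150. It was 0.15 with equal weight per cell, by limma on the mean over cells of log2 of CPM plus 1. That scale differs from the log2 fold change of summed counts, so the change in the median does not show the effect of weighting alone. The summed members differed by -0.24 (log2, gestation minus lactation), and by 0.147 without day 15. The median share of cells with a read differed by -11.2 points, and by -2.98 points where at least 5 reads were needed. With the first 4 runs of cell numbers, 3 members in place of 6 stood out at days 100 to 120 (share of all genes not taken). For cells with blood-cell markers, 6 members were called by DESeq2, 3 to 5 as stages were left out and 1 with the PTPRC rule. The shares of all genes called in these settings are not given here, so these counts have no background. Under the PTPRC rule DUSP1 was at -0.039. EGR1 ran from -0.56 to 0.23 as stages were left out, and was positive without the virgin stage, days 40 to 50, days 50 to 70 or day 7 of lactation. No paired analysis was possible because each stage is 1 sample and replicate numbers, given in accession order, only name samples. EGR1 and FOSB were read in under 10% of thinned cells of each stage, and the part of depth in this was not tested. The causes of the shifts above were not tested either.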
